A study of Homo sapiens with 7 samples.

Results

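The genes described here are HEXIM1, the kinase complex that it inhibits, and close associates: HEXIM1, HEXIM2, CDK9, CCNT1, CCNT2, LARP7, MEPCE and BRD2. SERPINI1, which is not part of that machinery, was included as a gene that responds to BET inhibitors. Together they are 9 of the 19775 genes in the table, were taken by name, and were chosen with the change of HEXIM1 after XMD892 already known. The question was whether HEXIM1 was higher alone among genes for the 7SK complex and for BET proteins. All 9 passed the filter on low values, a mean normalised read count of at least 10 over the 7 libraries, as did 16351 genes in all. Since the choice rests on the same libraries, the values of these 9 genes are given as a description and no p-value is attached to any of them.

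P-TEFb, a kinase made of CDK9 and a T-type cyclin (CCNT1 or CCNT2), phosphorylates RNA polymerase II and the factors that hold it paused just past the start of genes. A large share of cellular P-TEFb is kept inactive in the 7SK snRNP, in which the 7SK RNA is capped by MEPCE, bound at its end by LARP7, and carries HEXIM1 or HEXIM2, the proteins that block the kinase. BET proteins, such as BRD2 and BRD3, bind acetylated histones through bromodomains, and the family is linked to P-TEFb at transcribed genes. Higher HEXIM1 mRNA is widely used as a marker that BET bromodomains have been inhibited in a cell, and SERPINI1, which encodes the secreted serpin neuroserpin, is among the genes that have served the same purpose.

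Poly(A) RNA was sequenced, with paired reads, from 7 samples of H1, a widely used human embryonic stem cell line, all labelled wild type. Cells in E8, a defined medium with insulin, FGF2 and TGFβ, were exposed to 1 µM XMD892, with 1 sample harvested after 12 h, 2 after 24 h and 2 after 48 h, and 2 control samples were held in E8 for 48 h. The series is titled for ERK5, the kinase that XMD892 is used to inhibit; XMD8-92, as the name is more often written, has also been described as a ligand of BET bromodomains, which was not measured here. No control was taken at 12 or 24 h, so those comparisons also span a difference in harvest time, which cannot be told apart from the treatment. The labels do not say that replicates were separate cultures, name no solvent for the inhibitor, and cover 1 cell line and 1 dose.

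The listed genes carried between 18528689 and 24148186 reads per library. Of the pluripotency markers POU5F1, SOX2, NANOG, LIN28A, DNMT3B and TDGF1, all 6 were in the table, with a summed normalised read count between 134401 and 157141 in XMD892 libraries and of 135023 and 168479 in E8 libraries. Of 11 markers of other cell types, 4 were in the table (COL1A1, COL1A2, MESP1 and SOX1) and the others were not analysed here; their sum lay between 2239 and 2925 in XMD892 libraries, against 1921 and 2332 in E8. Of the 6 pluripotency markers, NANOG was called lower at 12, 24 and 48 h (log2 fold changes of -1.02, -0.63 and -1.16) and TDGF1 at 24 and 48 h (-0.65 and -0.78); the other 4 were not called, with POU5F1 at 0.17 and SOX2 at -0.01 at 48 h. SOX1 was higher at 48 h (1.21). COL1A1 was higher at 12 and 24 h and lower at 48 h (1.53, 0.70 and -0.64). Without 24 h replicate 1, NANOG (-0.59), TDGF1 (-0.59) and COL1A1 (0.68) were not called at 24 h; at 48 h COL1A1 was not called without either treated library, nor SOX1 without E8 replicate 1 or 48 h replicate 2 (0.94 and 0.97). Their part in the results was not tested, and in bulk RNA a change in the share of cells cannot be told apart from a change in RNA per cell. The 2 E8 libraries differed along GC content: over 16023 genes, the Spearman correlation of transcript GC content with the log2 difference of replicate 1 minus replicate 2 was -0.64 in E8, against 0.00 at 24 h and 0.21 at 48 h of XMD892. Values of the 9 genes without each E8 library are therefore given further on.

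HEXIM1 and HEXIM2 are neighbours on chromosome 17 and lie on the same strand. In GENCODE 29 on GRCh38, HEXIM1 spans chr17:45148502-45152101 and HEXIM2 chr17:45160700-45170040, with 8.599 kb between them. The P-TEFb genes lie at chr9:127785679-127790787 (CDK9), chr12:48688458-48716998 (CCNT1) and chr2:134918235-134959342 (CCNT2), and those of the 7SK proteins at chr4:112636964-112657592 (LARP7) and chr7:100428790-100434126 (MEPCE). BRD2 lies at chr6:32968660-32981505 and SERPINI1 at chr3:167735243-167825568; of the 9 genes, CCNT1 is the one on the minus strand. The 250 bases upstream of a RefSeq start site (GRCh38.p14) are printed for HEXIM1 and HEXIM2, 5′ to 3′ on the plus strand. These paralogs differed widely in level, and whether the windows bear on that was not tested. On both strands, capitals mark the TATA box core TATAAA (reverse complement TTTATA), the E box CACGTG (its own reverse complement), the GC box core GGGCGG (reverse complement CCGCCC) and the CCAAT box (reverse complement ATTGG); no marked hits overlap in these windows. The HEXIM1 window, chr17:45148225-45148474, ends just before the start site at 45148475. The HEXIM2 window, chr17:45159924-45160173, ends just before the start site at 45160174.
HEXIM1: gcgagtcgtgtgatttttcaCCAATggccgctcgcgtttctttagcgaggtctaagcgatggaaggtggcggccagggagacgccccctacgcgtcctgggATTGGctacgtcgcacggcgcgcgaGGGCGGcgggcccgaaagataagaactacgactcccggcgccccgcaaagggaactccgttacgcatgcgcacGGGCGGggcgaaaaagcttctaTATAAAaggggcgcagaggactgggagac
HEXIM2: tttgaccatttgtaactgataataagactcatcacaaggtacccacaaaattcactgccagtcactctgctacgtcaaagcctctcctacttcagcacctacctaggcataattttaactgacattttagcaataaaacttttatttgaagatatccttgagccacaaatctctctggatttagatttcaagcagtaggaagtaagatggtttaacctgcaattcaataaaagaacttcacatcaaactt

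The HEXIM1 window held TATAAA, the core of a TATA box, beginning 29 bases before the start site. It also held GGGCGG, the core of a GC box, 124 and 51 bases before it, and CCAAT 230 bases before it and, on the opposite strand, 149 bases before it. The printed HEXIM2 window held none of the motifs, but its start site, 45160174, lies upstream of the GENCODE span of the gene. The other RefSeq start site of HEXIM2, 45161875, lies inside that span, and its window held CCAAT on each strand. RefSeq gave 17 start sites for the 9 genes. TATAAA was present in 1 of the 17 windows, that of HEXIM1, and in 10.7% of all 35116 windows of the same length. GGGCGG was present in 11 of 17 windows, of 7 genes, and in 42.6% of all; CCAAT in 6 of 17 and in 32% of all; CACGTG in 2 of 17, of CCNT1 and MEPCE, and in 6.34% of all. A match describes the letters in the window and not a bound site. SERPINI1 held none of the 4 motifs.

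HEXIM1 was higher in every XMD892 library than in either E8 library, and the gap to E8 was widest at 12 h. Its normalised read count was 1791 at 12 h, 1373 and 1503 at 24 h, then 1301 and 1419 at 48 h, against 537 and 739 in E8. The groups did not overlap at any time: the lowest XMD892 library stood well above the higher E8 library. Means were 1438 ± 92.3 at 24 h, 1360 ± 83.4 at 48 h and 638 ± 143 in E8 (SD, n = 2 each). The log2 fold change against E8, on the log2(value + 1) scale with limma's standard error, was 1.51 ± 0.20 at 12 h, 1.19 ± 0.16 at 24 h and 1.11 ± 0.16 at 48 h, or 2.84-fold, 2.28-fold and 2.16-fold. In rank from the top of the 16351 tested genes by that fold change, HEXIM1 stood at 158 at 12 h, 255 at 24 h and 259 at 48 h, so many genes outside the complex moved further. Between treated times the values were closer: -0.08 ± 0.16 for 48 h against 24 h and -0.32 ± 0.20 for 24 h against 12 h.

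HEXIM2, the paralog that can replace HEXIM1 in the 7SK snRNP, was scarce throughout. Its normalised read count was 41.9 at 12 h, 19.8 and 31.8 at 24 h, then 35.6 and 41.7 at 48 h, against 18.3 and 37.2 in E8. The E8 libraries span most of the treated range, and the 24 h and 48 h groups both overlap E8. The lowest library held 19 reads of HEXIM2, where counting error alone is 22.9% of the value. The log2 fold changes against E8 were 0.66 ± 0.49, -0.06 ± 0.40 and 0.54 ± 0.40 at 12, 24 and 48 h, and the 95% interval at 48 h ran from -0.24 to 1.32, which includes the change of HEXIM1. Per kb of exon, HEXIM1 made up between 95.1% and 97.5% of the summed HEXIM1 and HEXIM2 level in XMD892 libraries, and 94.3% and 91.8% in E8.

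LARP7 and MEPCE, the proteins that stay with the 7SK RNA whether or not P-TEFb is bound, went different ways. LARP7, which binds and stabilises the end of the RNA, had a normalised read count of 2576 at 12 h, 1927 and 2117 at 24 h, then 2527 and 3117 at 48 h, against 3352 and 3075 in E8. The 12 h and 24 h libraries lay below both E8 libraries, whereas 1 of the 48 h libraries lay between them. Its log2 fold change against E8 was -0.32 ± 0.18 at 12 h, -0.67 ± 0.15 at 24 h (1.59-fold lower) and -0.19 ± 0.15 at 48 h, and it was 0.47 ± 0.15 at 48 h against 24 h.

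MEPCE, the enzyme that methylates the 5′ end of the 7SK RNA, had a normalised read count of 1444 at 12 h, 1199 and 1553 at 24 h, then 1118 and 1186 at 48 h, against 845 and 1160 in E8. The 12 h and 24 h libraries lay above both E8 libraries, and the 48 h libraries straddled the higher one. Its log2 fold changes were 0.54 ± 0.21, 0.46 ± 0.17 and 0.22 ± 0.17 at 12, 24 and 48 h. The 7SK RNA itself (RN7SK) is not polyadenylated and was not analysed here, so these values describe only the mRNAs of its proteins.

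The P-TEFb subunits stayed close to their E8 level. CDK9, the kinase, had a normalised read count of 1406 at 12 h, 1630 and 1735 at 24 h, then 1683 and 1448 at 48 h, against 1244 and 1658 in E8. CCNT1, its main cyclin partner, had 1372 at 12 h, 1085 and 1145 at 24 h, then 1006 and 1168 at 48 h, against 1313 and 1001 in E8. CCNT2, the alternative cyclin, had 1441 at 12 h, 1216 and 1292 at 24 h, then 1401 and 1390 at 48 h, against 1603 and 1167 in E8. For all 3 subunits the 24 h and 48 h groups overlapped E8, and most treated libraries fell inside the span of the E8 pair. At 48 h the 95% intervals of the log2 fold change ran from -0.19 to 0.44 for CDK9, from -0.40 to 0.24 for CCNT1 and from -0.29 to 0.35 for CCNT2. These intervals leave room for changes of up to 0.44 on the log2 scale. HEXIM1, chosen with its change known, stood at 1.11, with an interval from 0.79 to 1.43. All of them share the same E8 libraries, so no test is read from setting them side by side. The 95% intervals given here use a normal approximation and are slightly too narrow. At 24 h the log2 fold changes were 0.23 ± 0.16, -0.04 ± 0.16 and -0.13 ± 0.16 for CDK9, CCNT1 and CCNT2.

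BRD2, the member of the BET family that was chosen, was higher in every XMD892 library than in either E8 library, by less than HEXIM1. Its normalised read count was 5532 at 12 h, 4378 and 5078 at 24 h, then 5363 and 4924 at 48 h, against 3622 and 4002 in E8. No treated library overlapped E8, and the nearest treated library was a 24 h one. The log2 fold changes were 0.54 ± 0.17, 0.31 ± 0.14 and 0.43 ± 0.14 at 12, 24 and 48 h. SERPINI1 was also higher in all 5 XMD892 libraries, at a much lower level. Its normalised read count was 96.6 at 12 h, 73.9 and 58.0 at 24 h, then 79.9 and 81.3 at 48 h, against 55.0 and 34.7 in E8. The gap was narrow at 24 h, where the lower library stood just above the higher E8 one, and the lowest E8 library held 42 reads (counting error 15.4%). The log2 fold changes of SERPINI1 were 1.13 ± 0.35, 0.57 ± 0.29 and 0.87 ± 0.29.

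**Figure D1:**
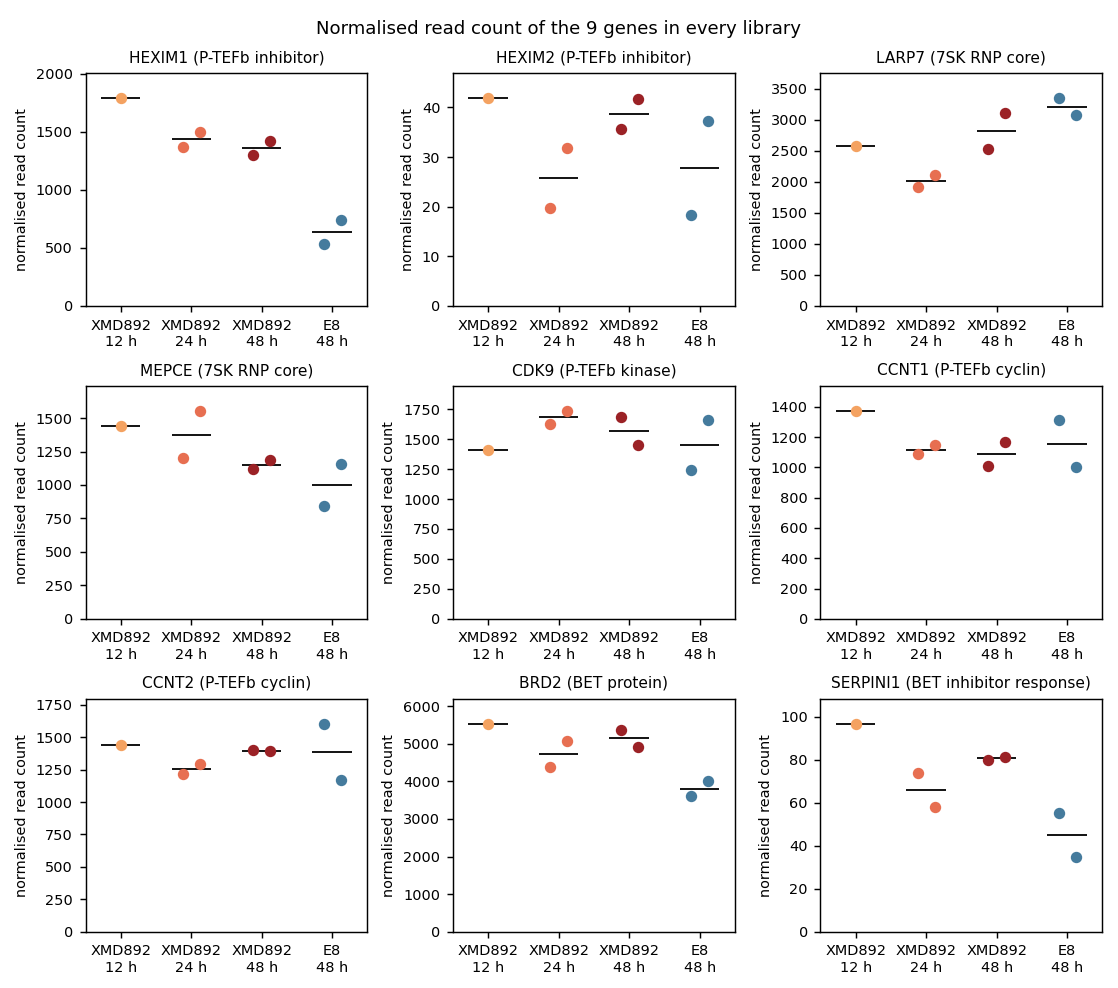
Normalised read count (y axis, from 0, own scale per panel) of each of the 9 genes in the single library at 12 h of XMD892, 2 at 24 h, 2 at 48 h and 2 in E8; each point is a library and each bar the group mean. HEXIM1, BRD2 and SERPINI1 are higher in all 5 XMD892 libraries than in both E8 libraries, whereas CDK9, CCNT1 and CCNT2 at 24 h and 48 h overlap E8.

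**Figure D2:**
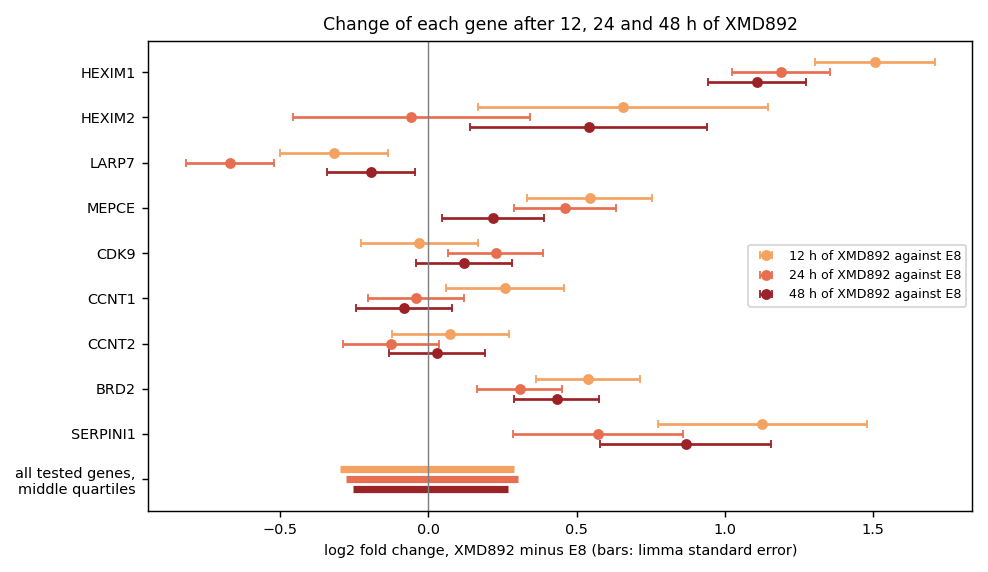
Log2 fold change of each of the 9 genes at 12, 24 and 48 h of XMD892 against E8 (x axis; points, with limma's standard error as bars), above the middle quartiles of all 16351 tested genes at each time (thick bars at the bottom). HEXIM1 stands at 1.51, 1.19 and 1.11, and LARP7 at 24 h, at -0.67, is the lowest value.

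Calls at a limma adjusted p under 0.05 over all tested genes (Benjamini-Hochberg) were as follows, and since the genes were chosen on these libraries nothing is read from them. At 48 h, 1 of the 9 genes was called higher (HEXIM1) and none lower, where 11.5% of all tested genes were called, 5.08% higher and 6.45% lower. At 24 h, HEXIM1 was called higher and LARP7 lower, where 16.2% of all genes were called, 8.66% higher and 7.56% lower. At 12 h, HEXIM1 was called higher, where 7.46% of all genes were called, 2.56% higher and 4.89% lower. None was called between 48 h and 24 h, where 1.2% of all genes were, or between 24 h and 12 h, where 0.391% were. HEXIM1 was 1 of 154 genes (0.942%) called higher at all 3 times. By libraries alone, 3 of the 9 genes lay above E8 without overlap at 48 h and none below, where 27.3% and 25% of all genes did. At 24 h, 4 lay above and 1 below, where 29.8% and 28.5% of all genes did, and at 12 h, with its single library, 6 above and 1 below, where 37.1% and 35.5% did. All 5 XMD892 libraries lay above both E8 libraries for 3 of the 9 genes, HEXIM1, BRD2 and SERPINI1, and for 14% of all tested genes; all 5 lay below for none of the 9 and for 14.8% of all. The median log2 fold change of the 9 genes was 0.54 at 12 h, 0.23 at 24 h and 0.22 at 48 h, against medians of 0.02, 0.01 and 0.02 over all tested genes.

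The values of most of the 9 genes moved with the E8 library they were set against. Without E8 replicate 1 and without E8 replicate 2, the log2 fold change at 48 h was 0.88 and 1.34 for HEXIM1, 0.05 and 1.03 for HEXIM2, and -0.13 and -0.26 for LARP7. It was -0.01 and 0.45 for MEPCE, -0.09 and 0.33 for CDK9, 0.11 and -0.28 for CCNT1, and 0.26 and -0.20 for CCNT2. It was 0.36 and 0.50 for BRD2, and 1.19 and 0.54 for SERPINI1. MEPCE, CDK9, CCNT1 and CCNT2 thus changed sign with the choice of E8 library at 48 h, and HEXIM2 did so at 24 h (-0.55 and 0.43). At 24 h the other pairs of values were 0.96 and 1.42 for HEXIM1, -0.61 and -0.73 for LARP7, 0.23 and 0.69 for MEPCE, 0.24 and 0.38 for BRD2, and 0.90 and 0.25 for SERPINI1. For the P-TEFb subunits at 24 h they were 0.02 and 0.43 for CDK9, 0.15 and -0.24 for CCNT1, and 0.10 and -0.35 for CCNT2.

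Calls of the 9 genes moved with single libraries and with processing choices, and so did those of all genes. Without E8 replicate 2, 3 of the 9 were called at 48 h, 5 at 24 h and 3 at 12 h, where 24.8%, 30.1% and 18% of all genes were. Without E8 replicate 1, 2 were called at 48 h, 2 at 24 h and 3 at 12 h, where 9.79%, 10.4% and 11.5% were. Without 24 h replicate 1, 1 was called at 24 h, where 6.76% were; LARP7, at -0.60, lost its call there. BRD2 was called at 48 h in 6 of 17 settings and SERPINI1 in 4 of 17, some of which kept all libraries.

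The position of the 9 genes in the E8 difference followed their GC content. The 4 genes with the lowest transcript GC content, CCNT2 (37.0%), LARP7 (38.1%), SERPINI1 (40.3%) and CCNT1 (40.8%), were higher in E8 replicate 1, by 0.46, 0.12, 0.65 and 0.39 on the log2 scale. The 5 others, HEXIM1 (48.2%), BRD2 (55.0%), CDK9 (55.1%), HEXIM2 (60.9%) and MEPCE (61.7%), were lower in it, with log2 differences of -0.46, -0.14, -0.41, -0.98 and -0.46. After the dependence on GC content was taken out of each library, 3, 2 and 4 of the 9 genes were called at 48, 24 and 12 h, where 20.8%, 22.1% and 16.4% of all genes were.

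**Figure D3:**
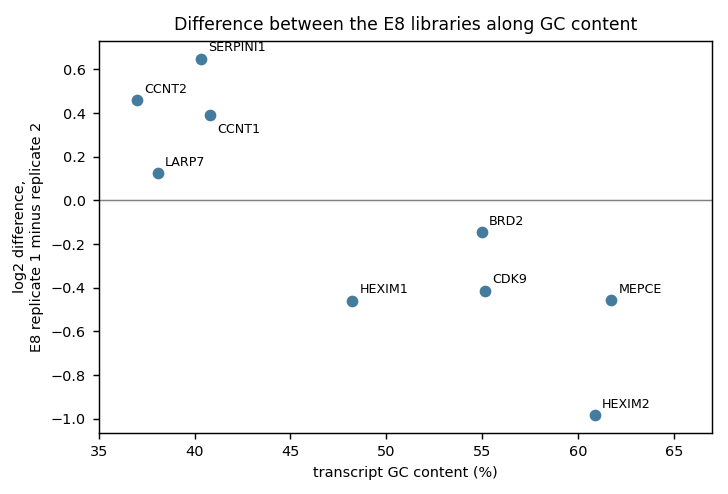
Log2 difference of E8 replicate 1 minus E8 replicate 2 (y axis) against transcript GC content in percent (x axis) for the 9 genes. The 4 genes under 41% GC lie above 0 and the 5 others, from HEXIM1 at 48.2% upward, lie below 0.

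Levels per kb of exon allow the genes to be set beside each other only roughly. The length counts every annotated exon of a gene, used in these cells or not, and small gaps between genes depend on it. In E8 the order was LARP7 (787 normalised reads per kb), BRD2 (520), CDK9 (484), MEPCE (293), HEXIM1 (177), CCNT1 (157), CCNT2 (152), SERPINI1 (18.6) and HEXIM2 (13.6). BRD2 and CDK9 overlapped between E8 libraries, as did HEXIM1, CCNT1 and CCNT2 among themselves, and SERPINI1 and HEXIM2. At 48 h of XMD892 the order was BRD2 (701), LARP7 (691), CDK9 (522), HEXIM1 (378), MEPCE (337), CCNT2 (154), CCNT1 (147), SERPINI1 (33.3) and HEXIM2 (19.0). BRD2 and LARP7 overlapped there, as did the 2 cyclins, while HEXIM1 stood above MEPCE in both libraries. In the 12 h library HEXIM1, at 497 per kb, stood above CDK9 at 469.

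The ratio of HEXIM1 to a gene it works with, taken within a library, removes any factor that scales all genes of that library alike. HEXIM1 over CDK9, both per kb, was 1.06 at 12 h, 0.702 and 0.722 at 24 h, then 0.644 and 0.817 at 48 h, against 0.36 and 0.371 in E8. The E8 libraries nearly coincided in this ratio, and every treated library lay above them. HEXIM1 over MEPCE was 1.18 at 12 h, 1.09 and 0.920 at 24 h, then 1.11 and 1.14 at 48 h, against 0.604 and 0.605 in E8. HEXIM1 over LARP7 was 0.788 at 12 h, 0.808 and 0.805 at 24 h, then 0.584 and 0.516 at 48 h, against 0.182 and 0.272 in E8. All 5 treated libraries stood above both E8 libraries for 7 of the 8 other genes, and for 89.4% of the 16350 other tested genes, so that this count restates the change of HEXIM1; the exception among the 8 was SERPINI1, whose ratios of 12.4 at 12 h, 12.5 and 17.4 at 24 h, then 10.9 and 11.7 at 48 h stood against 6.56 and 14.3 in E8, with 1 treated library above both. The summed inhibitors over the summed cyclins, (HEXIM1 + HEXIM2) over (CCNT1 + CCNT2) per kb, came to 1.5 at 12 h, 1.39 and 1.46 at 24 h, then 1.30 and 1.33 at 48 h, against 0.446 and 0.846 in E8. These are ratios of mRNA and say nothing of how much protein was bound.

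**Figure D4:**
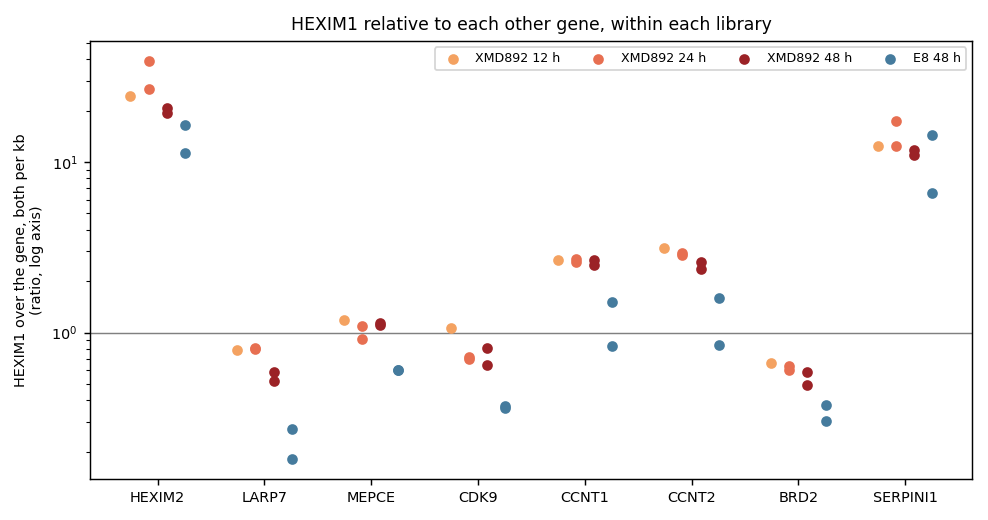
HEXIM1 divided by each of the 8 other genes, both per kb of exon, in every library (y axis, log scale), with XMD892 at 12, 24 and 48 h left of E8 for each gene. For 7 genes every XMD892 library lies above both E8 libraries; for SERPINI1 the groups overlap.

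Genes outside the 9 were taken from lists of the machinery around P-TEFb, put together by function but with earlier results of these data known, and limma adjusted p-values are given for them. BRD3, a BET gene outside the 9, was not called at any time. BRD3 had a normalised read count of 2109 at 12 h, 1941 and 2415 at 24 h, then 2254 and 2117 at 48 h, against 2101 and 2426 in E8. Its libraries at 24 and 48 h overlapped those of E8. At 48 h the log2 fold change was -0.05 ± 0.15 (limma adjusted p = 0.88), with a 95% interval of -0.35 to 0.25.

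Over all lists of this machinery, 61 of 64 genes were tested. At 12 h, 2 were called higher and none lower, where 2.56% and 4.89% of all tested genes were. At 24 h, 7 were called higher and 1 lower, where 8.66% and 7.56% of all were. At 48 h, 2 were called higher and 1 lower, where 5.08% and 6.45% of all were. None of the 61 was called between 48 h and 24 h, or between 24 h and 12 h, where 1.2% and 0.391% of all were. By group, none of the 10 other transcription kinases and their cyclins, among them CDK7 of TFIIH and CDK12 and CDK13 of elongation, was called at any time. Of 11 RNA polymerase II subunits, 3 were called at 24 h and 1 at 48 h, all higher. Of 11 partners of 7SK and P-TEFb, 3 were called at 24 h, all higher, and none at 12 or 48 h. Of 11 genes of the super elongation complex, 1 was called at 12 h (AFF2) and 1 at 48 h (MLLT3). AFF2, a scaffold of that complex, had a log2 fold change of 0.82 ± 0.25 at 12 h (limma adjusted p = 0.045). Its call was lost without E8 replicate 2 (0.71) and, among other settings, with only the groups compared. Of 16 pausing and elongation factors, 1 was called at 12 h (SUPT6H), 2 at 24 h (NELFB and TCEA1) and 1 at 48 h (TCEA1). SUPT6H had a log2 fold change of 0.60 ± 0.18 at 12 h, from the single library, and lost its call with only the groups compared.

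POLR2L, a small subunit common to the RNA polymerases, had the largest change among these genes at 12, 24 and 48 h with all libraries included. Its normalised read count was 1707 at 12 h, 2232 and 1919 at 24 h, then 2335 and 1595 at 48 h, against 629.5 and 1360 in E8. The treated libraries all lay above both E8 libraries, which themselves differed widely. Its log2 fold change was 0.88 ± 0.29 at 12 h, where it was not called. It was 1.16 ± 0.24 at 24 h (limma adjusted p = 0.0025) and 1.06 ± 0.24 at 48 h (limma adjusted p = 0.0057). Without E8 replicate 1, the lower of the pair, the log2 fold change was 0.61 at 24 h and 0.50 at 48 h. The call was lost at both times with robust variance moderation and with DESeq2 on recovered reads, and at 48 h also without 48 h replicate 1 (0.78). MLLT3 (AF9), a reader of acylated histones in the super elongation complex, averaged 312 ± 16.6 at 48 h and 174 ± 32.0 in E8 (SD, n = 2 each), a log2 fold change of 0.85 ± 0.19 (limma adjusted p = 0.0058). That call was lost without 48 h replicate 1 (0.80).

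TCEA1, which restarts backtracked polymerase, fell to 4162 ± 188 at 24 h and 3952 ± 184 at 48 h, against 5662 ± 733 in E8 (SD, n = 2 each). The limma adjusted p was 0.041 at 24 h and 0.022 at 48 h. NELFB, a subunit of the negative elongation factor, averaged 3714 ± 186 at 24 h and 2552 ± 491 in E8 (SD, n = 2 each), with a log2 fold change of 0.55 ± 0.15 (limma adjusted p = 0.017). At 24 h PPM1G, a phosphatase that frees P-TEFb from 7SK, had a log2 fold change of 0.48 ± 0.15 (limma adjusted p = 0.028), and TRIM28, which has been described with 7SK at paused genes, one of 0.51 ± 0.14 (limma adjusted p = 0.018). The calls of these 4 genes rest on few libraries: each was lost without E8 replicate 1 and without either library of the treated group, with log2 fold changes between -0.31 and -0.56 for TCEA1, between 0.36 and 0.61 for NELFB, between 0.31 and 0.49 for PPM1G and between 0.41 and 0.52 for TRIM28. For TCEA1 and TRIM28 at 24 h it was also lost with the GC trend removed (-0.26 and 0.27).

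The counts of called list genes moved with single libraries of both E8 and XMD892, as did the share of all genes called. With all libraries, 3, 8 and 2 of the 61 were called at 48, 24 and 12 h, where 11.5%, 16.2% and 7.46% of all genes were. Without E8 replicate 2 the counts were 17, 20 and 10, where 24.8%, 30.1% and 18% of all genes were called. Without E8 replicate 1 they were 2, 2 and 6, where 9.79%, 10.4% and 11.5% were. Without 24 h replicate 1 or 2, 1 was called at 24 h, where 6.76% and 10.6% of all genes were, and without 48 h replicate 1 none was at 48 h, where 4.84% were. The median log2 fold change over the 61 genes was 0.08 at 48 h, 0.02 at 24 h and 0.16 at 12 h.

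**Figure D5:**
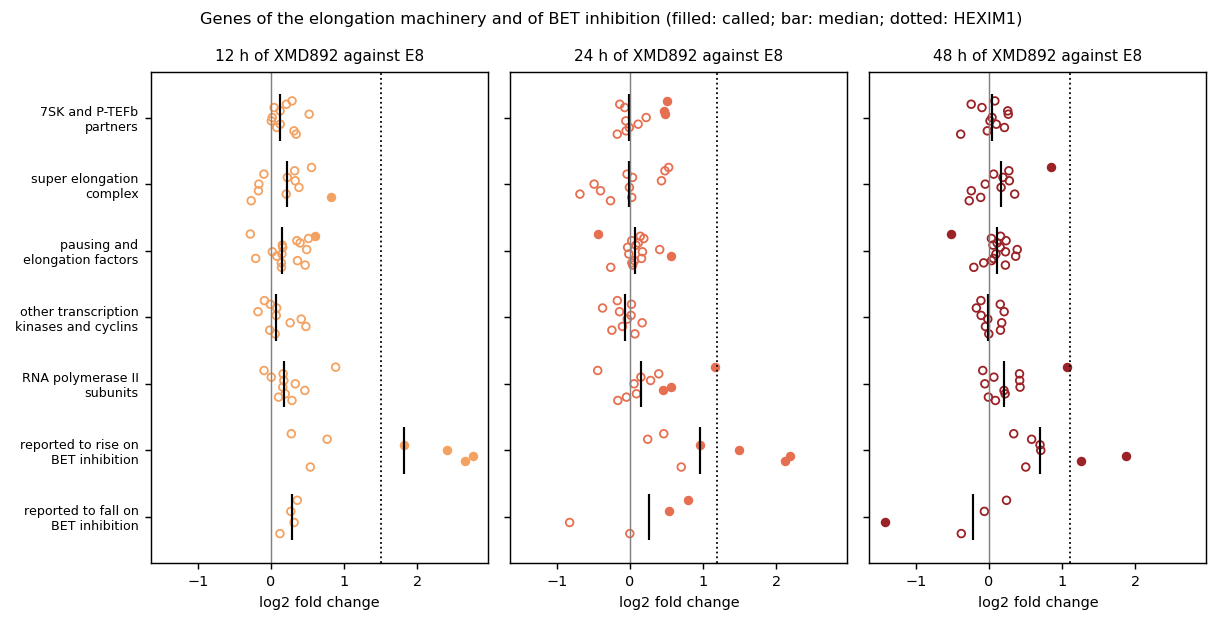
Log2 fold change (x axis) of the listed genes at 12, 24 and 48 h of XMD892 against E8, 1 point a gene, filled where the limma adjusted p was under 0.05; black bars are list medians and the dotted line is HEXIM1. The genes of the elongation machinery lie nearer 0 than HEXIM1, with POLR2L the farthest out at each time. At 12 h, 4 histone genes reported to rise on BET inhibition lie beyond 1.8.

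A further list held 8 genes reported in other cells to rise on BET inhibition, mostly histone genes, of which 7 were tested. This list and the next, of genes reported to fall, were also put together with earlier results of these data known. Their p-values therefore describe these libraries only. At 12 h and at 24 h the same 4 were called higher (HIST1H2BD, HIST1H2BK, HIST1H2BJ and HIST1H2AC), at 48 h 2 were (HIST1H2BD and HIST1H2AC), and none was called lower against E8. Over all tested genes, 2.56%, 8.66% and 5.08% were called higher at 12, 24 and 48 h. HIST1H2BD, a histone H2B gene on chromosome 6, had a normalised read count of 234 at 12 h, 154 and 160 at 24 h, then 130 and 122 at 48 h, against 30.6 and 37.2 in E8. HIST1H2AC, a histone H2A gene of the same cluster, had 666 at 12 h, 369 and 579 at 24 h, then 246 and 263 at 48 h, against 115 and 96.7 in E8. Both genes had every treated library above E8 with no overlap and, like HEXIM1, their highest library at 12 h. Every treated library lay above both E8 libraries for 14% of all tested genes.

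The log2 fold change of HIST1H2BD was 2.76 ± 0.29 at 12 h (limma adjusted p = 1.9e-06), 2.19 ± 0.23 at 24 h (limma adjusted p = 2.2e-06) and 1.87 ± 0.23 at 48 h (limma adjusted p = 1.5e-05). That of HIST1H2AC was 2.65 ± 0.26 at 12 h (limma adjusted p = 7.3e-07), 2.12 ± 0.21 at 24 h (limma adjusted p = 8.2e-07) and at 48 h the gene stood 2.40-fold above E8 (limma adjusted p = 0.00037). HIST1H2AC was lower at 48 h than at 24 h by 0.86 ± 0.21 (limma adjusted p = 0.046), a call lost with TMM scaling and without 24 h replicate 2 or either 48 h library. At 24 h the calls of HIST1H2BK and HIST1H2BJ were lost without 24 h replicate 2 (0.58 and 0.89), and that of HIST1H2BK also without E8 replicate 1 (0.78). The median log2 fold change of the 7 genes was 1.82 at 12 h, 0.95 at 24 h and 0.70 at 48 h, where the medians over all tested genes were 0.02, 0.01 and 0.02. Histone genes have near-identical copies among which reads can be split, and most histone mRNA lacks a poly(A) tail, so that libraries made with oligo(dT) hold only part of it. HIST2H2BE, HIST1H1C and ZCCHC24 were not called.

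Of 8 genes reported in other cells to fall on BET inhibition, 4 were tested and the others were not analysed here. They did not move together. MYC, the growth-promoting transcription factor, had a normalised read count of 2672 at 12 h, 3464 and 2943 at 24 h, then 2152 and 2087 at 48 h, against 2201 and 2230 in E8. It was therefore above E8 in the 12 h and 24 h libraries and slightly below it in the 48 h ones. Its log2 fold change was 0.53 ± 0.14 at 24 h (limma adjusted p = 0.016), and the call was lost without 24 h replicate 1 (0.41); at 48 h it was -0.06 ± 0.14 (limma adjusted p = 0.82). MYC fell by 0.59 ± 0.14 at 48 h against 24 h (limma adjusted p = 0.046), a call lost with TMM scaling and without any 1 of those 4 libraries (-0.47 to -0.71).

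MYCN, the MYC paralog that embryonic stem cells also express, averaged 3492 ± 167 at 24 h, 2389 ± 226 at 48 h and 2029 ± 255 in E8 (SD, n = 2 each). It was called at 24 h, where its log2 fold change stood at 0.79 ± 0.15 (limma adjusted p = 0.0012). FOSL1, a subunit of the AP-1 factor, was scarce and fell to 11.9 and 15.9 normalised reads at 48 h, against 38.4 and 38.8 in E8. Its log2 fold change at 48 h was -1.43 ± 0.39 (limma adjusted p = 0.021), and the call was lost without E8 replicate 1 or 48 h replicate 1 and with DESeq2. BCL2, which blocks cell death, was not called at any time; at 48 h its log2 fold change was -0.38 ± 0.21 (limma adjusted p = 0.26).

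Of the genes within 100 kb of HEXIM1, 8 of 9 in the table were tested. None was called higher at 12 or 48 h, where 2.56% and 5.08% of all tested genes were, so nothing is read from that count. At 24 h, 8.66% of all were called higher and 7.56% lower. The nearest upstream, AC142472.1, is a noncoding RNA gene on the opposite strand whose annotated span, chr17:45146730-45148470, overlaps the printed HEXIM1 window. It had a normalised read count of 23.6 at 12 h, 13.5 and 9.35 at 24 h, then 18.4 and 16.9 at 48 h, against 12.2 and 17.4 in E8, and its groups overlapped at 24 and 48 h. At 24 h PLCD3, a phospholipase C, was called higher (0.49 ± 0.17, limma adjusted p = 0.047) and FMNL1, a formin, lower (-0.99 ± 0.25, limma adjusted p = 0.0098). FMNL1 had a normalised read count of 103 at 12 h, 75 and 86.0 at 24 h, then 116 and 73.4 at 48 h, against 162 and 159 in E8, and was also called lower at 48 h (-0.79 ± 0.25, limma adjusted p = 0.041). The call of PLCD3 was lost in 10 of its 16 alternatives, among them DESeq2 and the GC correction (0.31), and that of FMNL1 without 24 h replicate 1 at 24 h (-0.89) and, at 48 h, without E8 replicate 1 (-0.78) or 48 h replicate 2 (-0.47). PDCD10, whose start lies 0.304 kb from that of SERPINI1 on the opposite strand, had log2 fold changes of 0.12, -0.06 and 0.10 at 12, 24 and 48 h and was not called. Whether counting used strand is not given in the sources used here.

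The genes whose pattern over the 7 libraries was most like that of HEXIM1 were ranked by Pearson's r on the log2 scale among 11365 genes with a mean of at least 100; the libraries share their scaling and treatment, so r is a description. The first 10 were BTBD9 (0.996), CEP164 (0.988), DYNLL2 (0.987), SYNM (0.986), LCMT2 (0.986), HIST1H2BD (0.983), GINS3 (0.982), EEFSEC (0.981), DHRS2 (0.981) and TCF25 (0.978). The histone gene HIST1H2BD thus was the sixth. DHRS2, a short-chain dehydrogenase, had the widest change of the 10, with a normalised read count of 273 at 12 h, 96.8 and 132 at 24 h, then 79.9 and 95.2 at 48 h, against 14.0 and 20.7 in E8. BTBD9, a BTB-domain protein, had 342 at 12 h, 274 and 295 at 24 h, then 285 and 282 at 48 h, against 139 and 183 in E8. Both had their highest library at 12 h and E8 replicate 1 lowest, as HEXIM1 did. They were picked for that likeness, so nothing further is read from it. Of the other chosen genes, r with HEXIM1 was 0.91 for BRD2 (rank 252), 0.83 for MEPCE, 0.72 for SERPINI1, 0.51 for HEXIM2, 0.41 for CDK9, 0.04 for CCNT1, -0.20 for CCNT2 and -0.64 for LARP7.

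The same limits hold for every comparison. Values are relative to the other genes of a library, so a change in total RNA per cell was not measured. With 2 libraries against 2, an exact two-sided permutation test cannot go below p = 0.33, so that the limma values rest on a spread shared across genes and groups, and the single 12 h library is assumed to vary like the others.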

How the data were processed

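The table deposited by the authors holds normalised signal, in which the reads counted for a gene had been scaled by a single factor for each library. Per the submitters' processing notes the tools were Trimmomatic 0.36, STAR, featureCounts 1.5.3 and DESeq2 1.26.0, with the hg38 genome; their roles, the annotation and the strand setting are not given in the sources used here. Every value was within 0.1 of a whole multiple of its library's smallest step, so whole reads could be recovered. The table's 2 further columns match no labelled sample and were not used. Libraries held 18528689 to 24148186 reads over the 19775 listed genes, the lowest with 6 reads in all; counting errors given cover counting only.

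Genes with a mean of 10 or more (16351) were tested on log2(value + 1) with limma 3.58.1 (R 4.3.3): 1 mean per group over all 7 libraries, a trended prior variance (3 residual and 18.4 prior degrees of freedom) and Benjamini-Hochberg adjustment over all tested genes. The code was tested on simulated data. The 9 genes, the lists, the comparisons and the alternatives were chosen with earlier results of these data known. Named genes are all 9 chosen genes, called or extreme list genes (at most 4 a list), neighbours within 100 kb and the 10 genes most correlated with HEXIM1. Symbols were matched to GENCODE 29 (97.7%), which gave coordinates, exon length and GC content (98% of tested genes). Sequences are from RefSeq (GRCh38.p14), where 9 of 9 genes matched. Alternatives were pseudocounts of 0.5 and 5, no filter or one at a mean of 50, TMM or same-total scaling, edgeR 4.0.16 and DESeq2 1.42.0 on recovered counts, robust moderation, only the groups compared, replicate number as a block, removal of the GC trend (loess, span 0.3), and leaving out each replicate. One item is not reported here.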

Additional observations from a re-analysis of the deposited data

How the results depend on the processing

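HEXIM1 was chosen on these libraries, so its values across settings describe them and support nothing further. Leaving out 1 replicate at a time moved its log2 fold change between 0.88 and 1.34 at 48 h, between 0.96 and 1.42 at 24 h and between 1.28 and 1.74 at 12 h. The count of the 9 genes called was 1, 2 and 1 at 48, 24 and 12 h. At 48 h it was 2 with a pseudocount of 5, a filter at a mean of 50, TMM scaling, only the groups compared, the replicate number as a block or DESeq2, and 3 with the GC trend removed. Of all genes, between 10.1% and 13.4% were called in the former settings and 20.8% in the last. At 12 h it was 2 with a pseudocount of 5, the replicate block or DESeq2, and 4 with the GC trend removed. There, 7.98%, 7.53%, 6.76% and 16.4% of all genes were called. Without 1 replicate it ranged from 1 to 3 at 48 h and from 1 to 5 at 24 h, and was 3 in each case at 12 h. Between treated times 0 of the 9 were called, against 1 for 48 h against 24 h with only the groups compared or with the GC trend removed, and 1 for 24 h against 12 h with only the groups compared. In those settings 6.38%, 2.55% and 8.91% of all genes were called. Of the 61 list genes, 3, 8 and 2 were called at 48, 24 and 12 h. At 12 h there were 1 without a filter, with the replicate block or with DESeq2, 0 with only the groups compared and 14 with the GC trend removed. Of all genes, 5.93%, 7.53%, 6.76%, 4.92% and 16.4% were called in these settings, in that order. At 24 h there were 5 with only the groups compared, and at 48 h 8 with the GC trend removed. There, 14.1% and 20.8% of all genes were called. Without 1 replicate these counts ranged from 0 to 17 at 48 h, from 1 to 20 at 24 h and from 6 to 10 at 12 h. Between treated times 0 were called, against 2 for 48 h against 24 h and 15 for 24 h against 12 h with only the groups compared. With only the groups compared, 6.38% and 8.91% of all genes were called. The cause of these moves was not tested. Over all genes, the calls ranged from 791 to 4057 at 48 h (1884), from 1105 to 4917 at 24 h (2652) and from 804 to 2941 at 12 h (1219).

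The correlations of replicate differences were -0.04 for E8 and 24 h, -0.05 for E8 and 48 h and -0.07 for 24 h and 48 h. No pairing of libraries by replicate number was seen, but values this low cannot exclude it. Depth limits HEXIM2 (19 to 45 reads) and SERPINI1 (42 to 90 reads) more than the other 7 genes.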
